A study of Mus musculus with 18 samples.

Results

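Cyclic AMP and neuropeptide signalling genes were followed in mouse CD4 T cells of the small intestine. The 9 genes are Crem, Ramp1, Ramp3, Ptger2, Ptger4, Pde3b, Pde4b, Pde4d and Pde7a, taken by symbol from a table of 38392 genes, and all 9 were found. RNA was sequenced in 18 libraries, 3 in each of 6 groups, from T cells lodged in the epithelium (IEL) or in the lamina propria (LP), the tissue under it. Sorting gave 3 populations per site: CD4+Foxp3+ regulatory cells (TR), CD4+CD8α+ cells (DP), and CD4+ cells with neither CD8α nor Foxp3 (SP). In every group the donor cells carried the alleles C57BL/6 TNa TNb RAG1-/- Foxp3GFP, and so shared 1 T-cell receptor, which came from a peripherally induced regulatory cell. They were moved as CD4+ CD8α- Foxp3-GFP- cells into C57BL/6 TCRa-/- TCRb-/- hosts, which lack αβ T cells of their own, and were recovered 6 weeks later. The ages of the mice and the animals behind each library are not given in the sources used here, and a p-value therefore reflects how libraries vary, which may be technical. The design asks what cells of 1 clone express once they have taken different fates in neighbouring tissues.

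Cyclic AMP is made by adenylyl cyclases when a receptor such as the prostaglandin E2 receptors EP2 and EP4 couples to the stimulatory G protein. It activates protein kinase A, which phosphorylates CREB-family transcription factors, and phosphodiesterases end the signal by hydrolysing cyclic AMP. In T cells a raised cyclic AMP level is known to dampen receptor signalling, and regulatory T cells are known for a high content of it. The Crem gene also makes short inducible repressors from an internal promoter, and the table counts all its transcripts together. RAMP proteins are single-pass membrane proteins that set which peptide, such as calcitonin gene-related peptide or adrenomedullin, a calcitonin-family receptor binds.

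Values are normalised read counts, that is, reads times 1 factor per library, as the authors deposited them. Whole reads recovered from them ran from 5093955 to 8851347 per library. Changes are log2 differences of the normalised count plus 1, the group named first less the other, and ± after such a change is its standard error. A gene passed when its limma p, adjusted by Benjamini-Hochberg over the 15472 genes tested, was under 0.05. Ramp1 was too low to enter the tests, so 8 of the 9 genes were tested. Foxp3, a gene of the TR gate, averaged 118 ± 49.0 in IEL TR, 12.01 ± 10.1 in IEL DP, 21.7 ± 16.7 in IEL SP, 136 ± 22.2 in LP TR, 0.880 ± 0.852 in LP DP and 4.47 ± 5.37 in LP SP (SD, n = 3 each). It was 66.2 in IEL TR library 1 and up to 39.9 in IEL SP, and its rise in TR passed in the lamina propria, whereas in the epithelium it did not pass against SP (adjusted p = 0.125) or DP cells (adjusted p = 0.083). Cd8a, a gene of the DP gate, averaged 5887 ± 875 in IEL DP and 3506 ± 207 in LP DP, and was at most 22.3 in the other libraries except IEL SP library 1, at 113. The IEL TR libraries agreed less with each other (correlations of 0.805 to 0.873) than the libraries of any other group (0.924 to 0.944), and IEL TR library 1 stood apart. Comparisons with IEL TR were therefore fitted on the libraries compared alone, and values without library 1 are given where leaving it out changed a call that is printed here.

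**Figure D1:**
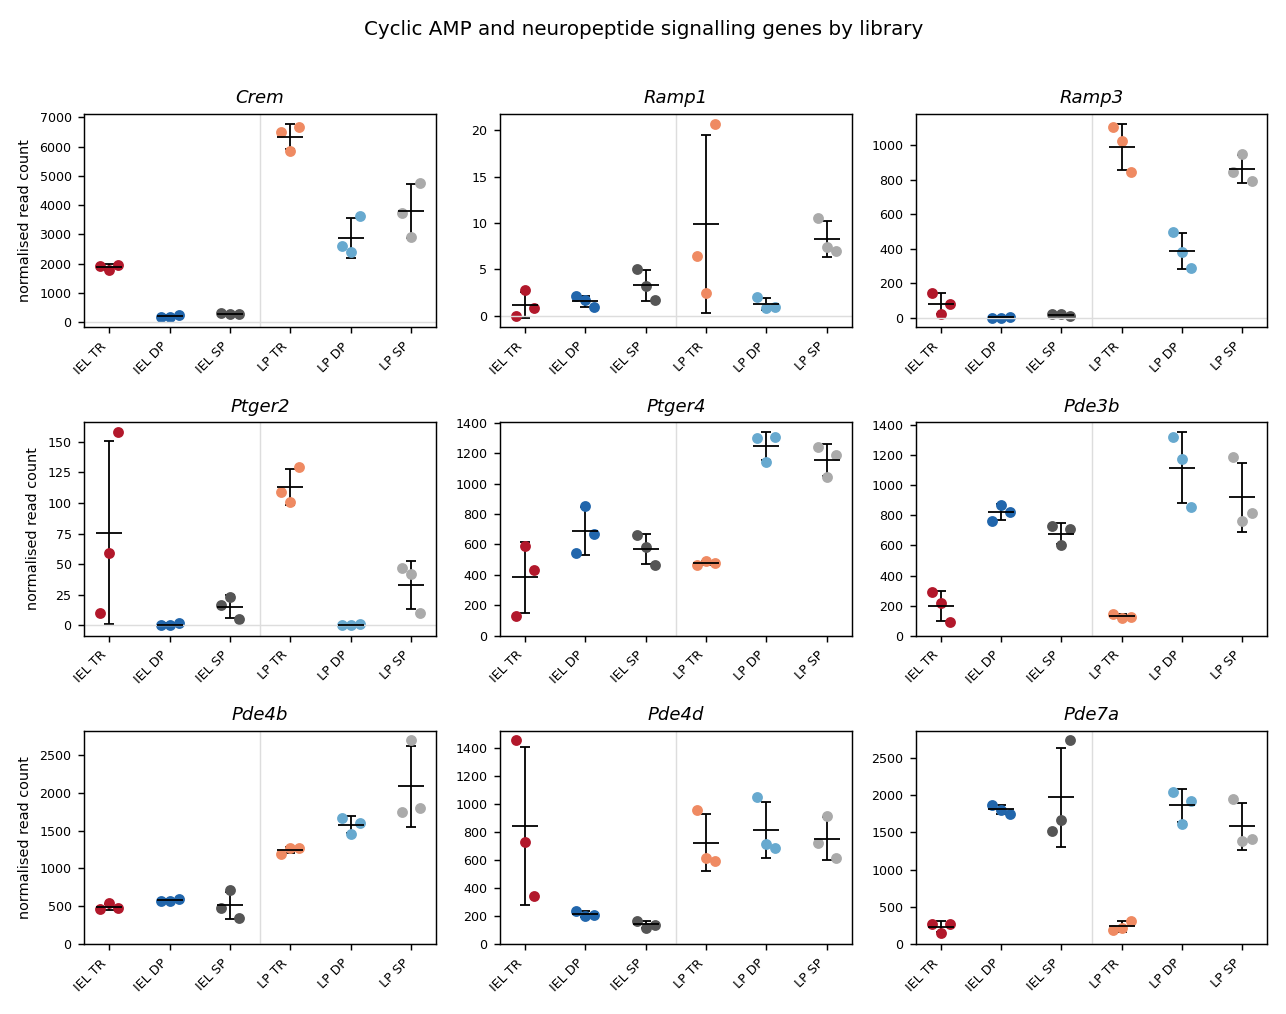
Normalised read counts of the 9 genes in each of the 18 libraries. Coloured points are libraries 1 to 3 of a group, black marks show the mean and SD, each panel has its own linear axis, and a grey line parts the 3 IEL groups from the 3 LP groups. Crem and Ramp3 stand higher in each LP group than in the IEL group of the same population, while Pde7a and Pde3b are low in the TR groups of both sites.

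Of the receptor partners, Ramp3 (ENSMUSG00000041046, chromosome 11, 6658521 to 6677475, GRCm38) pairs with the calcitonin receptor-like receptor, encoded by Calcrl, to form an adrenomedullin receptor. Its normalised counts were 145, 23.4 and 80.2 in IEL TR, 1.07, 1.65 and 2.79 in IEL DP, and 21.03, 20.2 and 11.9 in IEL SP. In the lamina propria they were 1106, 1025 and 845 in LP TR, 499, 381 and 291 in LP DP, and 844, 949 and 792 in LP SP. No IEL library reached the lowest LP library, and within the epithelium the IEL TR libraries were all above IEL SP and those above IEL DP. The 3 IEL DP libraries held 6 Ramp3 reads in all.

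Ramp3 fell in IEL DP against LP DP by 7.12 ± 0.28 on the log2 scale (adjusted p = 5.7e-09). With 6 reads in IEL DP, the size of this change depends on the 1 that was added. As reads per normalised depth the ratio was 0.00482, with a 95% exact interval of 0.00177 to 0.0105 that covers counting error only. It also fell in IEL SP against LP SP, by 5.56 ± 0.28 (adjusted p = 4.31e-08), the third lowest change of all genes. The change in IEL TR against LP TR was -3.90 ± 0.65 and did not pass (adjusted p = 0.0793), but passed without IEL TR library 1 (-4.47, adjusted p = 0.0409). In bulk samples such as these, fewer cells with a transcript and less of it per cell cannot be told apart.

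Between populations Ramp3 was lowest in DP cells. It fell in IEL DP against IEL SP by 2.73 ± 0.28 (adjusted p = 0.000527), a call that was lost when only those 6 libraries were fitted (adjusted p = 0.31). LP DP cells differed from LP SP cells by -1.17 ± 0.28, which did not pass (adjusted p = 0.0836), though it passed by edgeR on whole reads (adjusted p = 0.0177). Ramp3 rose in LP TR against LP DP by 1.37 ± 0.28 (adjusted p = 0.00473), and in IEL TR against IEL DP by 4.59 ± 0.73 (adjusted p = 0.0298). The last call was lost without a filter on low genes (adjusted p = 0.288), without IEL TR library 3 (adjusted p = 0.0814) or without any 1 of the IEL DP libraries (adjusted p = 0.113 to 0.133), and the LP call when all 18 libraries were fitted together (adjusted p = 0.102). Against SP cells the TR change was 1.86 ± 0.71 in the epithelium (adjusted p = 0.265) and 0.20 ± 0.28 in the lamina propria (adjusted p = 0.749).

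Because Ramp3 had the widest difference between sites of the 9 genes, the 250 bases before its RefSeq start are shown (GRCm38.p6, chr11:6658283-6658532, plus strand). They were searched on both strands for the 5-letter core of the cyclic AMP response element, TGACG, and for the whole palindrome, TGACGTCA, and held neither, so no letters are in capitals:
Ramp3: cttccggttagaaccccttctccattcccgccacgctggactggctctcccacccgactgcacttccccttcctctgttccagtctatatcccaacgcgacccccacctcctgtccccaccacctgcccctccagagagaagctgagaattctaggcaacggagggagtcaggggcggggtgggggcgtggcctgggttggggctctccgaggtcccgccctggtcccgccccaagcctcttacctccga
The window is rich in G and C, at 65.2%. Among all 32851 mouse promoter windows of this length in the RefSeq table, 17.8% held TGACG on either strand and 1.55% held TGACGTCA. A match is a string of letters and not a bound site, and its lack says only that these letters are not in this window.

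The other genes of the calcitonin family gave Ramp3 its setting. Calcrl was detected in all 18 libraries, at 93.8 to 318 normalised counts, and passed in none of the 11 comparisons. The calcitonin receptor gene Calcr, the other partner of RAMP proteins, was at most 1.24 in any library, and Ramp2 at most 0.75. Ramp1 (ENSMUSG00000034353, chromosome 1, 91179822 to 91225196), whose product with Calcrl makes the receptor for calcitonin gene-related peptide, was near the limit of detection. It had 0, 2.75 and 0.87 in IEL TR, 2.14, 1.65 and 0.93 in IEL DP, and 5.01, 3.19 and 1.70 in IEL SP. In the lamina propria it had 6.49, 2.49 and 20.7 in LP TR, 2.06, 0.85 and 0.94 in LP DP, and 10.5, 7.46 and 6.95 in LP SP. All LP SP libraries were above all LP DP libraries, with 25 against 4 reads in all and a ratio, LP DP over LP SP, of 0.152 (95% exact interval 0.0385 to 0.441, counting error only).

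The prostaglandin E2 receptors took different courses. Ptger2 (ENSMUSG00000037759, chromosome 14, 44988195 to 45003820) encodes EP2, and was all but missing from DP cells. It had normalised counts of 10.5, 59.1 and 158 in IEL TR, 0, 0 and 1.86 in IEL DP, and 17.0, 23.4 and 5.09 in IEL SP. They were 109, 101 and 129 in LP TR, 0, 0 and 0.94 in LP DP, and 46.9, 41.8 and 10.4 in LP SP. The IEL DP libraries held 2 Ptger2 reads in all and the LP DP libraries 1, and a library at 0 still allows up to 3 reads. The DP libraries of each site lay below every TR and SP library of that site. Gm17173, on the opposite strand, shares 246 exon bases with Ptger2 and reached at most 22.7 normalised counts, and without strand their reads cannot be told apart.

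Ptger2 fell in LP DP against LP SP (adjusted p = 0.00575), with 1 read against 105 and a ratio of 0.00907 (95% exact interval 0.000227 to 0.0516). In IEL DP against IEL SP, 2 reads stood against 45, a ratio of 0.0430 (interval 0.00506 to 0.165), and the test did not pass (adjusted p = 0.0871). Ptger2 rose in LP TR against LP DP (adjusted p = 2.07e-05), with 288 reads against 1, a ratio of 362 (interval 64.5 to 14365). In IEL TR against IEL DP the reads were 277 against 2, a ratio of 125 (interval 34.4 to 1041), and the test did not pass (adjusted p = 0.0646) but did without IEL TR library 1 (adjusted p = 0.0207). These intervals cover counting error only, and the log2 changes of Ptger2 against DP cells are not given because they depend on the 1 that was added. The LP DP against LP SP call was lost when only those 6 libraries were fitted (adjusted p = 0.0919). TR cells did not pass against SP cells in either site, with changes of 1.79 ± 1.07 in the epithelium (adjusted p = 0.474) and 1.99 ± 0.67 in the lamina propria (adjusted p = 0.083).

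Ptger4 (ENSMUSG00000039942, chromosome 15, 5206661 to 5244187) encodes EP4, and was detected in every library. Libraries held normalised counts of 128, 589 and 431 in IEL TR, 541, 855 and 668 in IEL DP, and 661, 581 and 466 in IEL SP. They were 466, 491 and 475 in LP TR, 1297, 1144 and 1309 in LP DP, and 1238, 1040.4 and 1187 in LP SP. LP TR lay below every LP DP and LP SP library, while the 3 groups of the epithelium overlapped. Per kb of exon, Ptger4 averaged 188 ± 13.8 and Ptger2 averaged 0.0603 ± 0.105 normalised counts in LP DP, and in LP TR they averaged 71.8 ± 1.91 and 21.8 ± 2.80 (SD, n = 3 each).

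Ptger4 fell in LP TR against LP SP by 1.27 ± 0.16 (adjusted p = 0.000218) and against LP DP by 1.38 ± 0.16 (adjusted p = 6.65e-05). It also fell in IEL DP against LP DP by 0.88 ± 0.16 (adjusted p = 0.00388) and in IEL SP against LP SP by 1.03 ± 0.16 (adjusted p = 0.00108). In IEL TR against LP TR the change was -0.58 ± 0.57 (adjusted p = 0.74), and 0.08 without library 1 of IEL TR, in which Ptger4 was lowest. Against IEL SP the IEL TR change was -0.82 ± 0.57 (adjusted p = 0.549), and -0.16 without that library. The TR change from SP was not shown to differ between sites (0.45 ± 0.62, adjusted p = 0.888), and the difference was 1.11 without that library. A fit of all 18 libraries together ended the LP TR against LP SP call (adjusted p = 0.0688) and the site calls (adjusted p = 0.219 in DP and 0.149 in SP). Ptger4 shares 82 exon bases on the opposite strand with Ttc33, which averaged 294 normalised counts, and the library kit does not mark strand.

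Of the 4 phosphodiesterase genes, Pde7a and Pde3b were lowest in the 6 TR libraries, Pde4b was lower in the epithelium in all 3 populations, and Pde4d was lower there in DP and SP cells. Pde7a (ENSMUSG00000069094, chromosome 3, 19223108 to 19311322) encodes a high-affinity enzyme specific for cyclic AMP. Normalised counts of Pde7a were 275, 146 and 274 in IEL TR, 1870.0, 1797 and 1751 in IEL DP, and 1512, 1667 and 2733 in IEL SP. They were 183, 214 and 314 in LP TR, 2041, 1616 and 1924 in LP DP, and 1944, 1385 and 1413 in LP SP. All 6 TR libraries lay at 314 or below, and the other 12 at 1385 or above. Pde7a fell in IEL TR against IEL SP by 3.09 ± 0.35 (adjusted p = 0.0133) and against IEL DP by 3.01 ± 0.27 (adjusted p = 0.00553). It fell in LP TR against LP SP by 2.75 ± 0.23 (adjusted p = 4.34e-06) and against LP DP by 3.00 ± 0.23 (adjusted p = 1.24e-06). The IEL TR against IEL SP call was lost without any 1 of the IEL SP libraries (adjusted p = 0.0648 to 0.0769) and without a filter on low genes (adjusted p = 0.0742), and the IEL TR against IEL DP call without that filter (0.0975). Adding replicate number to the fit also ended the IEL TR against IEL SP call. The sites did not differ beyond the test, with changes of -0.05 (95% interval -0.92 to 0.82) in TR, -0.04 (-0.53 to 0.45) in DP and 0.29 (-0.20 to 0.78) in SP.

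Pde3b (ENSMUSG00000030671, chromosome 7, 114415281 to 114539251) encodes a phosphodiesterase that cyclic GMP inhibits, known from the action of insulin. Pde3b reached normalised counts of 290.0, 217 and 91.5 in IEL TR, 766, 870.5 and 825 in IEL DP, and 728, 600.5 and 708 in IEL SP. They were 144, 121 and 124 in LP TR, 1323, 1174 and 858 in LP DP, and 1186, 764 and 816 in LP SP. Again the 6 TR libraries lay below the other 12. Pde3b fell in LP TR against LP SP by 2.80 ± 0.18 (adjusted p = 5.37e-07) and against LP DP by 3.08 ± 0.18 (adjusted p = 1.38e-07). In IEL TR the changes were -1.91 ± 0.44 against IEL SP (adjusted p = 0.0886) and -2.19 ± 0.43 against IEL DP (adjusted p = 0.0544). Neither passed, and each did without IEL TR library 1 (adjusted p = 0.0415 and 0.029). Between sites Pde3b did not pass, at 0.47 in TR (95% interval -0.65 to 1.59), -0.42 in DP (-0.82 to -0.03) and -0.42 in SP (-0.81 to -0.02), with adjusted p of 0.737, 0.169 and 0.183. The TR changes from SP were not shown to differ between the sites (0.89 ± 0.50, adjusted p = 0.704). Without IEL TR library 1, which held the highest of the 3 IEL TR values, these were 0.12 between sites in TR (adjusted p = 0.928) and 0.54 for the difference between sites (adjusted p = 0.728).

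Pde4b (ENSMUSG00000028525, chromosome 4, 102087543 to 102607259) encodes a cyclic AMP phosphodiesterase recruited to the T-cell receptor complex. Its normalised counts were 462, 543 and 471 in IEL TR, 573, 567 and 597 in IEL DP, and 476, 710.2 and 350.4 in IEL SP. They were 1196, 1275 and 1267 in LP TR, 1673, 1455 and 1603 in LP DP, and 1750.4, 2703 and 1803 in LP SP. No IEL library reached any LP library. Pde4b fell in IEL TR against LP TR by 1.34 ± 0.13 (adjusted p = 0.0231), in IEL DP against LP DP by 1.44 ± 0.21 (adjusted p = 0.000693) and in IEL SP against LP SP by 2.05 ± 0.21 (adjusted p = 2.84e-05). The IEL TR call was lost without a filter on low genes (adjusted p = 0.364), without any 1 of the LP TR libraries (adjusted p = 0.188 to 0.196) or without IEL TR library 3 (adjusted p = 0.0608). Adding replicate number to the fit ended that call too. In LP TR against LP SP Pde4b fell by 0.71 ± 0.21 (adjusted p = 0.0486), a call at the edge of the threshold that was lost with 0.5 added in place of 1 (adjusted p = 0.0501), without a filter (0.0712), or without LP SP library 2 (0.176). In IEL TR against IEL SP the change was -0.00 ± 0.28 (adjusted p = 1).

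Pde4b has 4 start sites in the RefSeq promoter table, and 1 of their windows was the only window with a TGACG core among the 9 windows of 6 of the genes (Ramp1, Ramp3, Ptger2, Ptger4, Pde4b and Pde4d). It is printed for that reason (GRCm38.p6, chr4:102421305-102421554, plus strand), with the match, CGTCA on this strand, in capitals at 34 to 30 bases before the start:
Pde4b: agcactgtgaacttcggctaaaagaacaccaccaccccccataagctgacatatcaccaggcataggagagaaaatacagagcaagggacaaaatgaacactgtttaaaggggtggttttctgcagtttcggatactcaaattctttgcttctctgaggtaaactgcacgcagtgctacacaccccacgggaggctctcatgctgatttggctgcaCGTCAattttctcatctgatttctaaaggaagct
None of the 9 windows held the palindrome. TGACG in 1 of the 9 windows stands beside 17.8% of all promoter windows. Crem, Pde3b and Pde7a had no usable RefSeq window and were not searched. Counts per gene do not say which of the 4 starts was used.

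Pde4d (ENSMUSG00000021699, chromosome 13, 108449948 to 109953461) encodes another enzyme of the same family. Its normalised counts were 1456, 731 and 341 in IEL TR, 237, 197 and 206 in IEL DP, and 165, 118 and 136 in IEL SP. They were 959, 618 and 594 in LP TR, 1048, 714 and 683 in LP DP, and 723, 918 and 613 in LP SP. IEL DP and IEL SP lay below every other library, and the 3 LP groups overlapped. Pde4d fell in IEL DP against LP DP by 1.91 ± 0.23 (adjusted p = 0.000119) and in IEL SP against LP SP by 2.41 ± 0.23 (adjusted p = 1.13e-05), while IEL TR against LP TR gave 0.01 ± 0.54 (95% interval -1.32 to 1.35, adjusted p = 0.998). IEL TR stood above IEL SP by 2.36 ± 0.53 without passing (adjusted p = 0.0848), and LP TR against LP SP gave -0.07 ± 0.23 (adjusted p = 0.899). The difference between these, 2.43 ± 0.61, did not pass (adjusted p = 0.237). IEL TR library 1 held the highest value, and without it the IEL TR against LP TR change was -0.50 (adjusted p = 0.618) and the IEL TR against IEL SP change 1.84 (adjusted p = 0.0615).

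**Figure D2:**
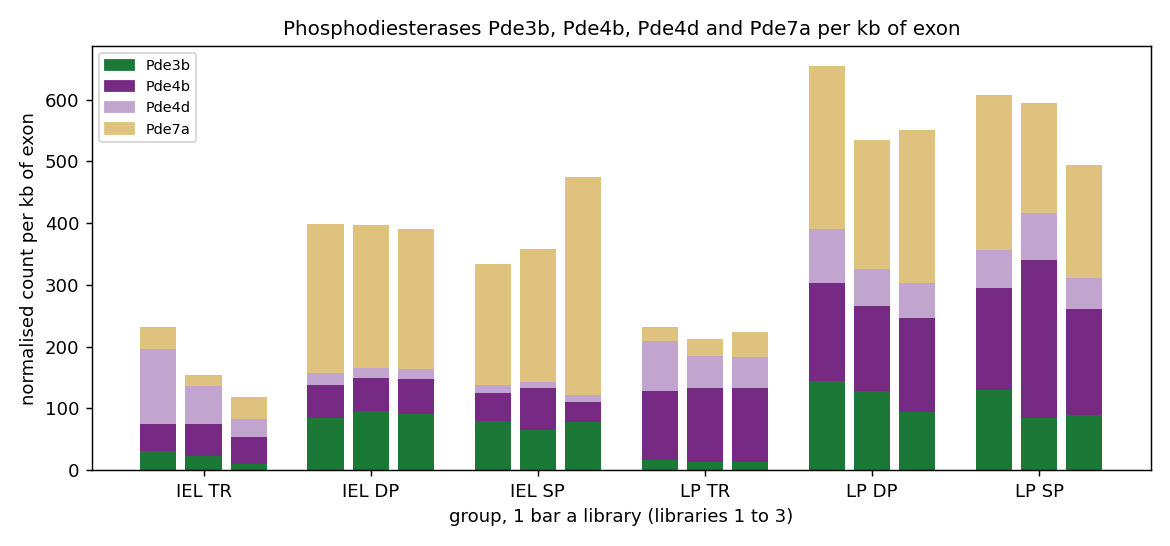
Normalised counts per kb of exon of Pde3b, Pde4b, Pde4d and Pde7a, stacked, with 1 bar for each of the 18 libraries and a linear axis from 0. Pde7a fills the most of each IEL DP and IEL SP bar and 10.1% to 29.9% of the TR bars, which reach 118 to 233 in sum.

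Per kb of exon the 4 enzymes summed to 169 ± 58.2 normalised counts in IEL TR, 396 ± 4.86 in IEL DP and 389 ± 75.4 in IEL SP (SD, n = 3 each). In the lamina propria the sums were 223 ± 9.80 in LP TR, 580.0 ± 64.8 in LP DP and 565 ± 62.2 in LP SP. Pde7a made up 19.1% ± 9.43 of the sum in IEL TR, 58.9% ± 1.34 in IEL DP and 64.3% ± 8.70 in IEL SP, and 13.7% ± 4.05 in LP TR, 41.4% ± 3.20 in LP DP and 36.1% ± 5.69 in LP SP. In TR cells the larger mean shares were those of the Pde4 genes. Pde4d had 38.5% ± 14.1 in IEL TR and 26.9% ± 6.55 in LP TR, and Pde4b 29.9% ± 9.84 in IEL TR and 53.0% ± 4.02 in LP TR. In IEL TR libraries 1 to 3 Pde4d held 52.2%, 39.3% and 24.0%, and Pde4b 18.8%, 33.2% and 37.7%. Pde4d thus led Pde4b in libraries 1 and 2 only, and in library 3 Pde7a, at 29.9%, was above Pde4d. These shares are of transcript levels per exon length and not of enzyme activity.

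Crem (ENSMUSG00000063889, chromosome 18, 3266048 to 3337748) encodes the cyclic AMP response element modulator, a transcription factor of the CREB family. Its normalised counts were 1922, 1785 and 1959.7 in IEL TR, 171, 174 and 249 in IEL DP, and 327, 263 and 282 in IEL SP. They were 6497, 5850 and 6679 in LP TR, 2596, 2390 and 3639 in LP DP, and 3726, 2912 and 4761 in LP SP. Every LP library was above every IEL library, and within each site the TR libraries were above all others. From highest to lowest the groups ran LP TR, LP SP, LP DP, IEL TR, IEL SP and IEL DP, and of these neighbours only LP SP and LP DP overlapped.

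Crem fell in IEL DP against LP DP by 3.85 ± 0.20 (adjusted p = 5.01e-08) and in IEL SP against LP SP by 3.68 ± 0.20 (adjusted p = 7.23e-08), both in all settings tried. It fell in IEL TR against LP TR by 1.75 ± 0.09 (adjusted p = 0.00844). Crem rose in IEL TR against IEL SP by 2.70 ± 0.14 (adjusted p = 0.00152) and against IEL DP by 3.27 ± 0.19 (adjusted p = 0.00143), and in LP TR against LP DP by 1.16 ± 0.20 (adjusted p = 0.00136). In LP TR against LP SP it rose by 0.77 ± 0.20 (adjusted p = 0.0265), lost when only those 6 libraries were fitted (adjusted p = 0.0504), without any 1 of the LP TR libraries (0.0505 to 0.0785), or without LP SP library 1 (0.0645) or 2 (0.107). The IEL TR against LP TR call was lost without a filter (adjusted p = 0.183) and without any 1 of the LP TR libraries (0.0727 to 0.134). That call was also lost when replicate number was added to the fit. The IEL TR against IEL DP call was lost without a filter (0.0705).

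On the log2 scale the TR change of Crem was larger in the epithelium than in the lamina propria. The difference between the changes, (IEL TR minus IEL SP) minus (LP TR minus LP SP), was 1.94 ± 0.23 (adjusted p = 0.0127). It missed the threshold without LP TR library 1 (adjusted p = 0.0523) or 2 (0.0557). DP cells did not pass against SP cells in either site, at -0.57 ± 0.20 in the epithelium (adjusted p = 0.545) and -0.40 ± 0.20 in the lamina propria (adjusted p = 0.547). A gene on the opposite strand, Gm6225, shares 472 exon bases with Crem and reached at most 95.5 normalised counts in any library.

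**Figure D3:**
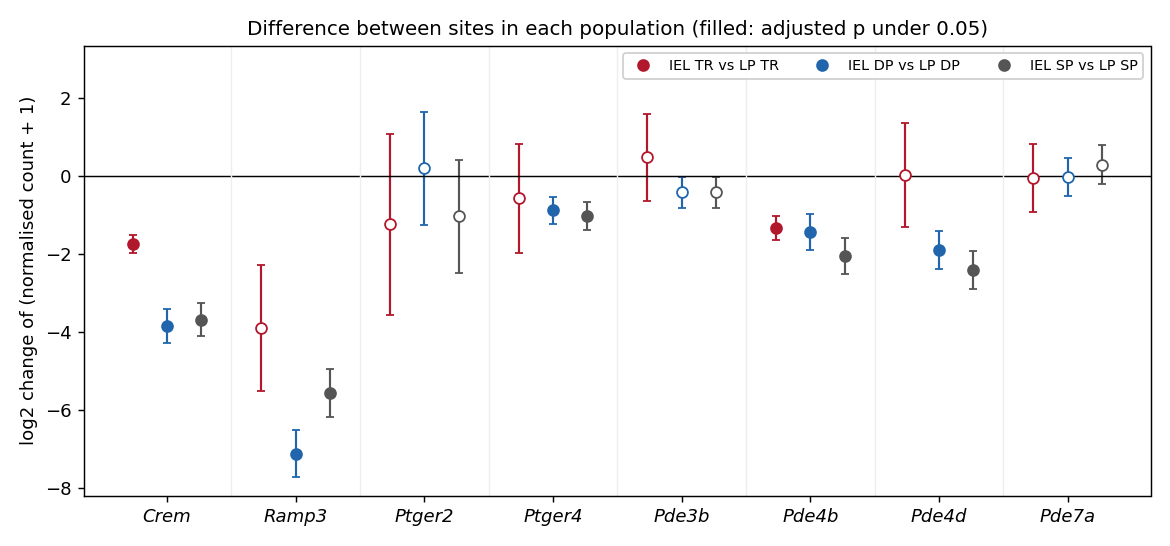
Log2 change between sites for the 8 tested genes, IEL minus LP, in TR (red), DP (blue) and SP (grey) cells, with 95% intervals from limma. Filled points passed at an adjusted p under 0.05; Crem and Pde4b are filled in all 3 populations, and Ramp3 in DP lies lowest, at -7.12.

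Set against all genes, most of the 8 tested genes were lower in the epithelium than in the lamina propria in DP and SP cells. In IEL DP against LP DP 5 of the 8 fell (Crem, Ramp3, Ptger4, Pde4b and Pde4d) and 0 rose, where 5.42% of all genes tested fell and 4.1% rose. In IEL SP against LP SP the same 5 fell and 0 rose, where 5.66% of all genes fell and 4.25% rose. In IEL TR against LP TR 2 fell (Crem and Pde4b) and 0 rose, where 0.569% of all genes fell and 0.0323% rose. The median change of the 8 genes was -0.91 in TR, -1.16 in DP and -1.55 in SP, where the median of all genes was -0.05, 0.05 and 0.03. The genes were picked with earlier results of these data known, so these counts describe them and are no test of the pathway.

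Immediate early genes, which handling and receptor signals are known to raise, moved with the sites as well. The 15 genes of that list summed to 17372 to 23342 normalised counts in IEL TR, 16720 to 23077 in IEL DP and 17044 to 20786 in IEL SP. The sums were 19663 to 29795 in LP TR, 41926 to 48143 in LP DP, with LP SP between 36834 and 48616. Of the 15, 1 fell in IEL TR against LP TR (Atf3, named after its values were seen), 10 in IEL DP against LP DP and 9 in IEL SP against LP SP, and 0 rose. Without IEL TR library 1, 2 fell in IEL TR against LP TR, with Per1 as the other (adjusted p = 0.0319). Of all genes tested 0.569%, 5.42% and 5.66% fell with every library in these comparisons of TR, DP and SP cells. Epithelium markers, 10 genes, summed to 341 to 431 in IEL TR, 386 to 1148 in IEL DP and 343 to 660.1 in IEL SP, against 180.3 to 292 in LP TR, 256 to 439 in LP DP, and between 132 and 396 in LP SP. Epcam and Cdh1, which made up most of these sums in most groups, did not pass between sites in any population. Both passed between TR and DP cells of each site. Cdh1 averaged 5.46 in IEL TR and 294 in IEL DP, and 4.79 in LP TR and 293 in LP DP. Epcam averaged 330 in IEL TR and 34.7 in IEL DP, and 196 in LP TR and 17.5 in LP DP. The sums thus vary with the T-cell population and do not measure epithelial cells alone. Of the 8 markers tested, 4 rose in IEL DP against LP DP, 3 in IEL SP against LP SP and 0 in IEL TR against LP TR, where 4.1%, 4.25% and 0.0323% of all genes rose. The markers that rose are named after their values were seen. The fatty acid binding protein gene Fabp2 averaged 199 ± 269 in IEL DP against 1.03 ± 1.78 in LP DP (adjusted p = 0.00437) and 37.0 ± 2.52 in IEL SP against 1.95 ± 3.38 in LP SP (adjusted p = 0.0252). The keratin gene Krt8 averaged 42.6 ± 49.3 in IEL DP against 0.283 ± 0.491 in LP DP (adjusted p = 0.017) and 31.95 ± 39.9 in IEL SP against 0.250 ± 0.433 in LP SP (adjusted p = 0.0434). Krt20 rose in both populations as well, and Vil1 in DP cells. Not all markers moved that way. In IEL SP against LP SP the Vil1 change was -1.57, which did not pass (adjusted p = 0.415). Krt18, another keratin gene, changed by -1.20 in IEL DP against LP DP (adjusted p = 0.622). In IEL SP against LP SP it changed by 0.85 (adjusted p = 0.756), and neither Krt18 change passed. The part of either list in the site results was not tested.

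**Figure D4:**
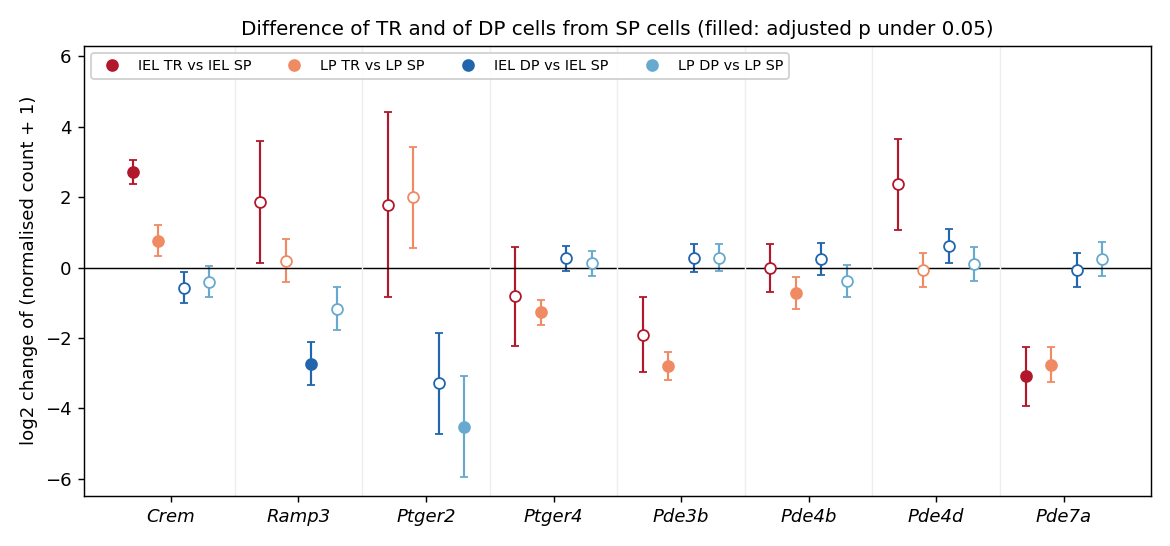
Log2 change from SP cells of the same site for the 8 tested genes, TR minus SP (red in the epithelium, orange in the lamina propria) and DP minus SP (dark and light blue), with 95% intervals from limma. Filled points passed at an adjusted p under 0.05; Pde7a lies near -3 in TR cells of both sites and near 0 in DP cells.

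In regulatory cells Crem rose and Pde7a fell in both sites, while the Pde3b and Ptger4 changes passed in the lamina propria. In IEL TR against IEL SP 1 of the 8 rose (Crem) and 1 fell (Pde7a), where 1.49% of all genes rose and 1.42% fell. In LP TR against LP SP 1 rose (Crem) and 4 fell (Ptger4, Pde3b, Pde4b and Pde7a), where 5.03% of all genes rose and 4.47% fell. In IEL TR against IEL DP 2 rose (Crem and Ramp3) and 1 fell (Pde7a), where 2.36% of all genes rose and 1.78% fell. In LP TR against LP DP 3 rose (Crem, Ramp3 and Ptger2) and 3 fell (Ptger4, Pde3b and Pde7a), where 7.76% of all genes rose and 5.42% fell. TR and DP comparisons of 1 site share libraries, so their counts are not independent. Whether the TR change differed between sites passed for 1 of the 8, Crem, where 0.168% of all genes passed in either direction.

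Few of these genes passed between DP and SP cells, Ramp3 in the epithelium and Ptger2 in the lamina propria. In IEL DP against IEL SP 0 of the 8 rose and 1 fell (Ramp3), where 0.0452% of all genes rose and 0.168% fell. In LP DP against LP SP 0 rose and 1 fell (Ptger2), where 0.252% of all genes rose and 0.517% fell. Whether the DP change differed between sites passed for 0 of the 8 and for 0% of all genes by limma. Of all genes 974 had an unadjusted p under 0.05 there, and edgeR passed 0 and DESeq2 31. For Ramp3 that difference was -1.56 ± 0.40 (unadjusted p = 0.00163, adjusted p = 0.591).

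Other genes of the pathway came from lists of the enzymes, receptors, ligands and targets around cyclic AMP. Of the 8 other phosphodiesterases tested, Pde2a, which cyclic GMP stimulates, rose in TR cells against SP and DP cells of both sites. It averaged 183 ± 79.0 in IEL TR, 14.7 ± 3.44 in IEL DP and 10.2 ± 11.1 in IEL SP, and 222 ± 74.3 in LP TR, 9.09 ± 1.05 in LP DP and 43.6 ± 19.4 in LP SP (SD, n = 3 each). Against SP cells the change was 4.37 ± 0.78 in the epithelium (adjusted p = 0.0473) and 2.35 ± 0.54 in the lamina propria (adjusted p = 0.0137). The call against IEL SP was lost without IEL TR library 1 (4.18, adjusted p = 0.0659). Pde11a, which hydrolyses both cyclic nucleotides, fell in LP TR against LP SP by 1.79 ± 0.52 (adjusted p = 0.0445) and was low throughout.

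**Figure D5:**
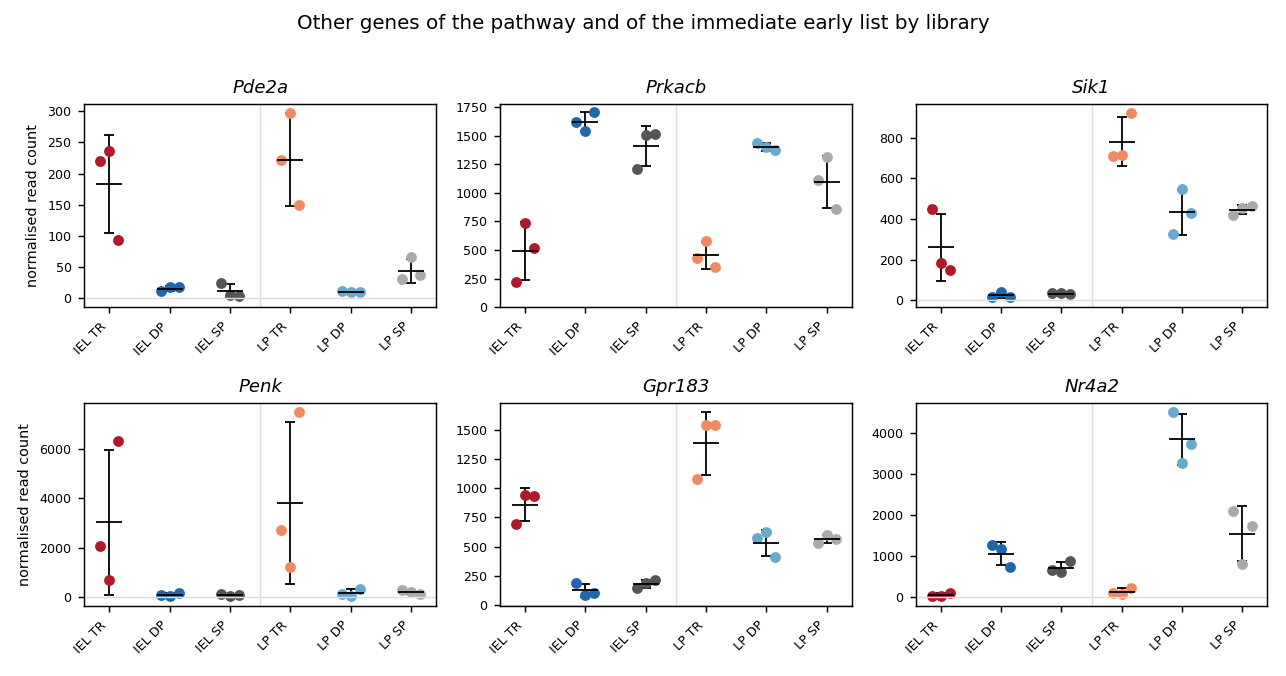
Normalised read counts of Pde2a, Prkacb, Sik1, Penk, Gpr183 and Nr4a2 in each of the 18 libraries. Coloured points are libraries, black marks show the mean and SD, and each panel has its own linear axis; Prkacb and Nr4a2 are low in the TR groups of both sites, and Pde2a and Penk are high there.

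Of the 14 genes of protein kinase A, its anchors and Epac that were tested, 0 rose in TR cells against SP cells in either site, and 1 fell in the epithelium and 2 in the lamina propria. Of all genes 1.49% rose and 1.42% fell there in the epithelium, and 5.03% rose and 4.47% fell in the lamina propria. Prkacb, a catalytic subunit, averaged 493 ± 255 in IEL TR and 1408 ± 171 in IEL SP, a difference that did not pass (adjusted p = 0.12) but did without IEL TR library 1 (-1.18, adjusted p = 0.0435). It fell in LP TR against LP SP by 1.28 ± 0.18, with 454 ± 114 against 1095 ± 229 (adjusted p = 0.000401). Prkar2a, a regulatory subunit, fell in TR cells of both sites, with 6.80 ± 4.45 in IEL TR against 83.5 ± 39.2 in IEL SP (adjusted p = 0.0435) and 15.7 ± 2.68 in LP TR against 64.3 ± 25.4 in LP SP (adjusted p = 0.0143). Prkar2b, another regulatory subunit, fell in TR against DP cells, at 0.457 ± 0.791 in IEL TR against 71.9 ± 54.2 in IEL DP (adjusted p = 0.0212) and 6.87 ± 6.99 in LP TR against 50.2 ± 26.6 in LP DP (adjusted p = 0.0323). Akap13, an anchoring protein, fell in LP TR against LP DP by 0.34 ± 0.08 (adjusted p = 0.0154). Adcy7, the adenylyl cyclase best known from blood cells and 1 of 2 cyclases tested, fell in LP TR against LP SP by 0.54 ± 0.14 (adjusted p = 0.0288). It rose in IEL DP against LP DP by 0.69 ± 0.14 (adjusted p = 0.00842) and in IEL SP against LP SP by 0.80 ± 0.14 (adjusted p = 0.0029). None of the 4 G protein genes tested passed in TR or DP against SP.

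Sik1, a kinase that keeps CREB coactivators out of the nucleus and is itself a known CREB target, was the 1 gene of 10 on the list of CREB family genes and coactivators that passed between populations of a site. It had 449.65, 184 and 149 in IEL TR and averaged 24.4 ± 13.95 in IEL DP and 33.3 ± 3.92 in IEL SP, with 780.1 ± 122 in LP TR, 433 ± 110.4 in LP DP and 446 ± 21.2 in LP SP (SD, n = 3 each). Sik1 rose in IEL TR against IEL SP by 2.76 ± 0.47 (adjusted p = 0.0417), and by 2.28 without library 1 of IEL TR (adjusted p = 0.0203). Against LP TR the IEL TR change was -1.74 ± 0.43 (adjusted p = 0.177), and without that library it passed (-2.22, adjusted p = 0.0266). It fell in IEL DP against LP DP by 4.19 ± 0.30 (adjusted p = 9.57e-07) and in IEL SP against LP SP by 3.71 ± 0.30 (adjusted p = 2.7e-06).

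Of 27 other G protein-coupled receptor genes in the table, 9 were high enough to be tested. Among them Gpr183, an oxysterol receptor that guides lymphocyte migration, rose in IEL TR against IEL SP by 2.23 ± 0.23 (860 ± 141 against 184 ± 35.6, adjusted p = 0.00969). It also rose in LP TR against LP SP by 1.27 ± 0.27 (1385 ± 268 against 567 ± 33.5, adjusted p = 0.00801). Nmur1, the neuromedin U receptor, was at 17.3, 6.22 and 24.4 in LP TR and at 0, 0.75 and 0 in LP SP, and rose (adjusted p = 0.0131). The prostacyclin receptor gene Ptgir rose in LP TR against LP SP, with 10.3 ± 5.83 against 0.780 ± 1.35 (adjusted p = 0.0366). The histamine receptor gene Hrh2 fell in the same comparison, with 2.47 ± 2.49 against 31.8 ± 16.8 (adjusted p = 0.0174). Adrb1, a beta adrenergic receptor, fell in IEL TR against IEL DP by 2.88 ± 0.35 (11.5 ± 2.69 against 90.9 ± 19.0, adjusted p = 0.0129).

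Of 15 neuropeptide ligand genes 4 were tested, among them Penk, which encodes the precursor of the enkephalin opioid peptides. It had 2052, 694 and 6347 in IEL TR and 101, 31.9 and 82.3 in IEL SP (4.99 ± 0.87, adjusted p = 0.0454), and 2708, 1201 and 7518 in LP TR and 287, 200.03 and 107 in LP SP (3.98 ± 0.90, adjusted p = 0.0118). In both sites every TR library was above every SP library. Library 3 was the highest of the TR and of the DP libraries in both sites, but not of the SP libraries. The labels do not say whether same-numbered libraries of the sites are independent. All 18 libraries correlated best with their own number, so the rises in the sites may not be separate results. The IEL call was lost without IEL TR library 1 (adjusted p = 0.0615). Nmb, which encodes neuromedin B, rose in LP TR against LP SP by 0.84 ± 0.22 (adjusted p = 0.0243). Calca, the gene of calcitonin and of its gene-related peptide, rose in LP TR against LP DP, with 111, 27.4 and 39.0 in LP TR and 0, 0.85 and 18.8 in LP DP (adjusted p = 0.0378).

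Among the 15 immediate early genes 8 fell in LP TR against LP SP and 0 rose, where 4.47% of all genes fell and 5.03% rose, with a median change of -0.74 where that of all genes was -0.01. Nr4a2, an orphan nuclear receptor, fell by 3.55 ± 0.38 (134 ± 77.3 against 1547 ± 673, adjusted p = 4.87e-05), and Fos by 1.45 ± 0.16 (1507 ± 287 against 4105 ± 631, adjusted p = 7.59e-05). Btg2 fell by 1.72 ± 0.20 (adjusted p = 8.93e-05) and Fosb by 1.74 ± 0.24 (adjusted p = 0.000438). The epithelium had 1 that fell in IEL TR against IEL SP, Nr4a2 (-4.05 ± 0.56, adjusted p = 0.024), and 1 rose, the phosphatase gene Dusp1 (1.89 ± 0.16, adjusted p = 0.00549), which was named after its values were seen. Of all genes 1.42% fell and 1.49% rose in IEL TR against IEL SP. The difference of the TR change between sites passed for 2 of the 15, where 0.168% of all genes passed. It was 1.42 ± 0.23 for Fos (adjusted p = 0.049) and 1.96 ± 0.30 for Dusp1 (adjusted p = 0.045). The Fos call was lost without IEL TR library 1 (1.38, adjusted p = 0.0567). Markers of B and plasma cells, summed over 8 genes, came to 9.45 to 264 in IEL TR against 2.00 to 27.15 in IEL SP, and 102 to 573 in LP TR against 2.34 to 22.02 in LP SP. The IEL ranges overlapped and the LP ranges did not, and their part in the TR results was not tested.

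Some of the genes varied together over the 18 libraries. Crem and Ramp3 had a Pearson correlation of 0.95 on the log2 scale, Crem and Pde4d of 0.84, and Pde3b and Pde7a of 0.91, whereas Ptger2 and Pde3b had -0.77. Among all 15471 other genes tested, those most like Crem were Ccrn4l, Pim1 and Ifngr1 (0.98, 0.98 and 0.98), and those most like Ramp3 were Casp4, Dusp5 and Rnf125 (0.97, 0.96 and 0.96). Pde7a was most like Chsy1, Qpct and Cdh1 (0.98, 0.97 and 0.97), and Pde3b most like Gcnt2, Lypd6b and Tgfbr3 (0.96, 0.96 and 0.95). For Ptger2 they were S100a4, Tiam1 and Cass4 (0.93 each), and for Ptger4 Grap2, Evi2a and Arid5a (0.94, 0.94 and 0.93). For Pde4b they were Impact, Tnfaip3 and Gm15801 (0.96 each), and for Pde4d Abcb1a, Jund and Gypc (0.92, 0.91 and 0.89). These correlations describe 18 libraries that share 6 groups.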

How the data were processed

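The deposited table holds 1 signal per gene and library for 38392 Ensembl genes. TopHat, HTSeq and the mm10 build (GRCm38) stand in the submitters' processing notes, without versions. Per the labels' protocols, RNA was purified on beads, reverse transcribed and made into pooled Nextera XT libraries, a kit that does not mark strand. The deposited signal is a read count times 1 factor per library. In every library 100% of the values were whole multiples of 1 step (tolerance 0.1 of a step), which gave back whole reads, with a median of 5903164.5 per library. How the factors were computed is not given in the sources used here. Reads were amplified by PCR and carry no molecular identifiers, so intervals on reads cover counting error alone.

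The 9 genes, the other lists and the tests were chosen with earlier results of these data known. A gene entered the tests with a signal of 10 or more in 3 or more libraries, which left 15472 genes, fitted on log2(signal + 1) with limma 3.58.1 in R 4.3.3 (trend and robust variance). Comparisons without IEL TR used the 15 libraries of the other groups, those with IEL TR the 6 libraries compared, the TR interaction 12 and the DP interaction 15. Every adjusted p-value (Benjamini-Hochberg) comes from limma except where edgeR or DESeq2 is named. An exact permutation test of 3 against 3 has 0.1 as its smallest p and was not used. Genes named outside the 9 are, per list, up to 4 with the smallest p among those called within a site, and per tested gene the 3 most correlated. Coordinates and exon lengths come from GENCODE M21 (36639 identifiers matched) and promoters from RefSeq (GRCm38.p6). The fits were also run on simulated counts drawn independently for each library. That check cannot show how the fits behave if same-numbered libraries share a source. Alternatives were other pseudocounts, filters, scalings and fits, edgeR 4.0.16 and DESeq2 1.42.0 on whole reads, and leaving out each library.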

Additional observations from a re-analysis of the deposited data

Results flagged for a closer look

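The TR change of Crem, the cyclic AMP response element modulator, differed between the sites: (IEL TR minus IEL SP) minus (LP TR minus LP SP) was 1.94 on the log2 scale in a limma fit of the 12 libraries. Crem was higher in TR than in SP cells in all libraries of both sites, and on the log2 scale the gap was wider in the epithelium. In normalised counts the means stood further apart in the lamina propria (6342 in TR, 3800 in SP) than in the epithelium (1889 and 291). The difference passed in that fit and missed the threshold without LP TR library 1 or 2.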

How the results depend on the processing

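Of the 31 member changes that passed, 16 passed under every one of the settings tried and 15 were lost under at least 1, and 0 reversed. Between sites, 5 of the 8 genes passed in DP and in SP cells whichever library was left out, while in IEL TR against LP TR 0 to 3 did. The cause of these moves was not tested. Depth limits Ramp1 everywhere, Ptger2 in DP cells of both sites and Ramp3 in IEL DP, at a few reads per library.

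Members called changed as follows. They were, for IEL TR against IEL SP (2), 1 without a filter, 5 with all 18 libraries in 1 fit, 5 with group weights, 1 with the replicate block and 4 by DESeq2. In LP TR against LP SP (5) they were 3 with all 18 and 3 with only the groups compared. In IEL DP against IEL SP (1) they were 0 with only the groups compared, 2 with weights and 2 by DESeq2, and in LP DP against LP SP (1) they were 2 with a pseudocount of 4, 0 with only the groups compared, 2 by edgeR and 2 by DESeq2. For IEL TR against IEL DP (3) they were 0 without a filter, 5 with quantile normalisation, 6 with all 18, 6 with weights and 6 by DESeq2. For IEL TR against LP TR (2) they were 0 without a filter and 0 with the block, and for the TR interaction (1) they were 2 by DESeq2.

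Genes called among all tested changed likewise. There were, for IEL TR against IEL SP (450 genes), 233 without a filter, 1799 with all 18, 766 with weights, 63 with the replicate block and 1517 by DESeq2. In LP TR against LP SP (1470) there were 874 with all 18 and 854 with only the groups compared. In IEL DP against IEL SP (33) there were 17, 9 and, by DESeq2, 111, and in LP DP against LP SP (119) there were 60, 45 and 354. For IEL TR against IEL DP (640) there were 9 without a filter, 2170 with all 18, 1013 with weights, 195 with the block and 1740 by DESeq2. For IEL TR against LP TR (93) there were 0 without a filter, 1008 with all 18, 280 with weights, 0 with the block and 929 by DESeq2. Between sites, DP (1472) gave 847 with all 18, and SP (1533) gave 862 with all 18 and 917 with only the groups compared. The TR interaction (26) gave 13 with equal totals, 9 with quantile normalisation, 58 with all 18 and 192 by DESeq2. The DP interaction (0) gave 1 with the replicate block and 31 by DESeq2. On whole reads edgeR called 306 genes in IEL TR against IEL SP, 1326 in LP TR against LP SP, 28 and 117 in DP against SP (IEL and LP), 505 and 1921 in TR against DP (IEL and LP), 76, 1453 and 1448 between sites (TR, DP and SP), and 21 and 0 for the TR and DP interactions.

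Leaving out 1 library at a time, members called ranged from 1 to 4 in IEL TR against IEL SP, 3 to 5 in LP TR against LP SP, 1 to 2 in IEL DP against IEL SP, 2 to 5 in IEL TR against IEL DP, 0 to 3 in IEL TR against LP TR and 0 to 2 for the TR interaction. All genes called ranged over 37 to 629, 1096 to 1477, 8 to 36, 143 to 817, 0 to 159 and 0 to 73 in the same comparisons. They ranged over 67 to 127 in LP DP against LP SP, 1563 to 2074 in LP TR against LP DP, 849 to 1527 between sites in DP and 986 to 1537 between sites in SP.

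Changes that turned direction had not passed. Pde4b in IEL TR against IEL SP became 0.020 with TMM, and Pde4d in IEL TR against LP TR became -0.035 with equal totals. Pde7a in IEL DP against LP DP became 0.055 with equal totals and 0.13 with quantile normalisation. The TR interaction of Ptger2 became 0.14 with quantile normalisation, 0.55 by edgeR and 0.56 by DESeq2, and the DP interaction of Pde3b 0.028 with equal totals. Without 1 library, Pde4b ranged from -0.24 to 0.26 in IEL TR against IEL SP and from -0.0062 to 0.50 in IEL DP against IEL SP, where Pde7a ranged from -0.24 to 0.19. Pde4d ranged from -0.29 to 0.085 in LP TR against LP SP, -0.085 to 0.26 in LP DP against LP SP, -0.40 to 0.016 in LP TR against LP DP and -0.50 to 0.55 in IEL TR against LP TR. In that last comparison Ptger4 ranged from -1.02 to 0.079 and Pde7a from -0.22 to 0.25. In IEL DP against LP DP Ptger2 ranged from -0.32 to 0.51 and Pde7a from -0.13 to 0.034. The TR interaction of Ptger2 ranged from -1.07 to 0.83, and the DP interactions of Pde3b from -0.20 to 0.13, of Ptger4 from -0.022 to 0.31 and of Crem from -0.35 to 0.012.

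Replicate numbers are shared by the groups, but the labels do not say that they pair the libraries. Deviations of same-numbered libraries correlated at 0.00053 to 0.0887 (median 0.0385) over 45 pairs, all above 0 and 0 of them over 0.1. All 18 libraries correlated best with their own number, a hint of sharing from the data and not the design. The main p-values do not account for replicate number. With it in the fit, fewer genes passed in IEL TR against IEL SP, IEL DP and LP TR, as given above. The cause of that was not tested.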
